A study of Mus musculus with 6 samples.

Results

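Cd55, Daf2, Cr1l and Cd59a, the genes of 4 membrane regulators of complement, were described in hematopoietic stem cells lacking the lymphotoxin-β receptor (LTβR). They were 4 of 26216 gene names in the files and were chosen by name, with their difference between the 2 genotypes already known. That difference is therefore given for them as a description, with no test. LSKs, the stem and progenitor cells of bone marrow, from Ltbr-/- donors (CD45.2) and from Ltbr-proficient Ly5.1 donors (CD45.1) had been co-transplanted into Ly5.1/Ly5.2 hosts after lethal irradiation. At week 6, LT/ST-HSCs of each genotype were FACS-purified from these mixed chimeras (lineage- Annexin V- Sca1+ c-kit+ CD150+ CD48-), and material from 6 chimeras was combined into 3 replicates of each genotype. The Ltbr-/- donors of replicates 1, 2 and 3 were 13, 10 and 10-13 weeks old, and all Ly5.1 donors were 7-13 weeks old. Both genotypes had passed through irradiated hosts, and no untransplanted cells were compared here.

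Complement is a chain of plasma proteases that ends in deposition of C3 fragments and pore formation on a cell surface, and the cells of the host are spared by regulators on their membranes. Cd55 (decay-accelerating factor) breaks up the C3 and C5 convertases and is held in the membrane by a glycosylphosphatidylinositol (GPI) lipid anchor. Daf2 is the older name of Cd55b, a neighbouring copy whose product is a transmembrane form of the same factor. Cr1l (Crry) is a transmembrane protein of rodents that also acts on C3 convertases, as a cofactor for their cleavage and by their decay. Cd59a is a GPI-anchored protein that blocks assembly of the membrane attack complex at the last step of the chain.

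The values were normalised signals, the antilog of regularized log2 expression values, which are scaled for library size and shrunken for genes with few reads. Depth is unknown, since the files hold no counts. All 4 genes were among the 13108 names in the upper 50% by mean level that were tested. The targeted gene matched the labels, with Ltbr signals of 24.2, 26.4 and 23.1 in the Ltbr-/- samples and 564, 549 and 522 in the Ly5.1 samples (log2 difference -4.47, SE 0.082, limma adjusted p = 2.15e-32). All 12 HSC and sort markers, Kit, Slamf1 and Procr among them, passed the level filter. So did all 10 granulocyte markers and 3 of 10 T cell markers, so passing the filter does not tell the cell type. Granulocyte markers, Mpo, Prtn3 and Elane among them, were also abundant in these lineage-negative sorts. Their summed signal was 43018 to 43534 in Ltbr-/- and 56367 to 60799 in Ly5.1 samples.

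The Cd55 and Daf2 copies lie side by side on the minus strand of chromosome 1 (GRCm38), Cd55 at chr1:130429798-130465009 and Daf2 at chr1:130388526-130423097, with 6.70 kb between them. Their longest coding sequences, 1170 and 1200 bases in GENCODE M21, were identical at 1055 of 1144 aligned positions (92.2%). Because the 2 genes are such close copies but had different values, the 250 bases before the start that the RefSeq promoter table gives for each are shown, at chr1:130462745-130462994 for Cd55 and chr1:130423044-130423293 for Daf2. They run 5′ to 3′ on the minus strand (RefSeq, GRCm38.p6), and capitals mark non-overlapping runs of at least 12 bases found in both, taken longest first. The Cd55 window lies wholly, and the Daf2 window in part, within the outermost RefSeq span given above, which reaches past the start used here.
Cd55: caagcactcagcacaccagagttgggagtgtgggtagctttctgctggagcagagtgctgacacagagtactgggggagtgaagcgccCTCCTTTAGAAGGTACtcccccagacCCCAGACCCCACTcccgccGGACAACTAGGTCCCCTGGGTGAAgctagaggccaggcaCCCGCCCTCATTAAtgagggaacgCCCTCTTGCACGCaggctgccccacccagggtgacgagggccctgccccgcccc
Daf2: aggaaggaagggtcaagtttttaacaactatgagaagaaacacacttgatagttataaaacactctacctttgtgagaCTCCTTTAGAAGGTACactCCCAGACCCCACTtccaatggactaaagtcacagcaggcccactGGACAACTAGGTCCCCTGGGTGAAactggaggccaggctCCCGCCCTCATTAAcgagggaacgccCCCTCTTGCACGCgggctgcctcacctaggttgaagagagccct

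In a global alignment of the 2 upstream stretches 169 bases were identical, 67.6% of the 250, against 48.4% to 52.8% for every other pair of the 4 genes. The 5 capital runs covered 80 bases, and the longest, GGACAACTAGGTCCCCTGGGTGAA, had 24 bases and was found in 2 of 32851 RefSeq promoter windows, those of these 2 genes. The first run began at base 89 of the Cd55 stretch and base 79 of the Daf2 stretch. Letters of the loose NF-κB core, GGG and CC with any 5 bases between them, searched on both strands with overlaps counted, occurred at 4 positions for Cd55, 2 for Daf2, 1 for Cr1l and 1 for Cd59a, and in 45.8% of all promoter windows. The GC box GGGCGG occurred at 2, 1, 0 and 0 positions (32.7% of windows), TGACG at 1, 0, 0 and 0 (17.8%), and CAGCTG in none of the 4 (13%). These are letter matches and say nothing of binding.

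Cd55 was the member whose level differed between genotypes. Its signals were 1115, 1188 and 1261 in the Ltbr-/- samples and 679, 694 and 700 in the Ly5.1 samples. Every Ltbr-/- sample lay above every Ly5.1 sample, and the Ltbr-/- samples were more widely spaced, with a coefficient of variation of 6.15% against 1.56%. The means were 1188 ± 73.0 (SD, n = 3) and 691 ± 10.8 (SD, n = 3), a log2 difference of 0.78 or 1.72-fold. Of the 4 members, 1 had groups that did not overlap, and so did 30.4% of all genes tested. By size of the log2 difference Cd55 stood at rank 165 from the highest of 13108, and 2.72% of the genes tested were called higher, that is, with an adjusted p under 0.05 and a change of at least 1.5-fold. The value depended on no single library, ranging from 0.74 to 0.82 when each was left out. It was 0.76 after quantile normalization and turned to -0.085 when samples were centred on ribosomal protein genes, a scaling that moved the median of all genes tested from -0.011 to -0.88. The 78 ribosomal protein genes were themselves higher in Ltbr-/- cells by a median of 0.79. Relative to the shifted median Cd55 was 0.79 higher. This scaling moves every gene of a sample by the same amount, so distances from the median cannot change and are no check. In sorted cell pools, a change in the share of cells that express a gene and a change in RNA per cell cannot be told apart.

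Daf2 showed no such difference. Its signals were 82.6, 77.7 and 81.7 in Ltbr-/- and 86.4, 87.8 and 79.0 in Ly5.1 samples. The groups overlapped, with means of 80.7 ± 2.62 and 84.4 ± 4.74 (SD, n = 3 each) and a log2 difference of -0.064, about the size of the SD within groups (0.067). Daf2 and Cd55 can share reads. Of the 76-base windows of the longest coding transcript, the read length of this series, 24% of those of Daf2 and 10.4% of those of Cd55 were also found in another gene, each gene sharing with the other and with an antisense gene (Gm15674 and Gm16083). Matches on both strands were counted although the libraries were stranded. The share between Daf2 and Cd55 alone is therefore at most this and was not computed. How the counting treated shared reads is not given in the sources used here, so both values are uncertain to that extent. With the 2 signals summed the log2 difference was 0.71.

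Cr1l, the other convertase regulator, was nearly level. Its signals were 780, 921 and 937 in Ltbr-/- and 811, 900 and 908 in Ly5.1 samples. The groups overlapped throughout, replicate 1 being the lowest of its group in both, and the means of 879 ± 86.0 and 873 ± 53.9 (SD, n = 3 each) gave a log2 difference of 0.0074 beside a within-group SD of 0.12. Cr1l lies on the same chromosome (chr1:195098711-195131570), and 11.2% of its 76-base windows were shared with the pseudogene Crry-ps.

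Cd59a, the regulator of the terminal step and like Cd55 a GPI-anchored protein, was the lowest of the 4. Its signals were 30.9, 34.1 and 33.4 in Ltbr-/- and 33.2, 33.6 and 32.4 in Ly5.1 samples. The groups overlapped, with means of 32.8 ± 1.69 and 33.1 ± 0.591 (SD, n = 3 each) and a log2 difference of -0.012. At this low level the shrinkage of the deposited values narrows differences. Cd59a lies at chr2:104095753-104115410, and 1.68% of its 76-base windows were shared with its own copy Cd59b, whose signals of 8.29 to 8.76 were too low to be tested.

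**Figure D1:**
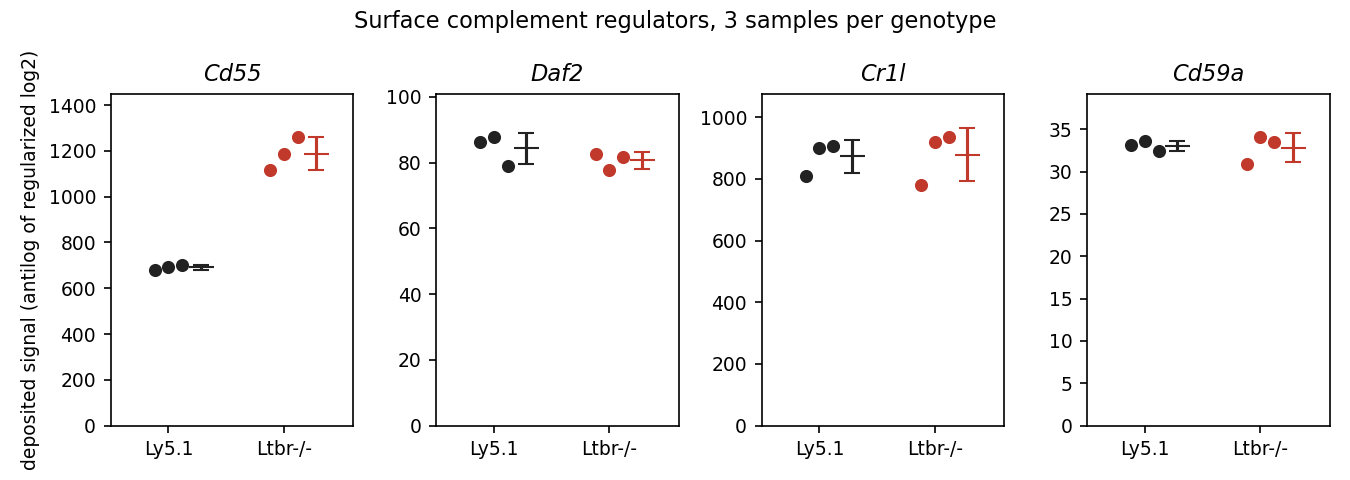
Deposited signal (linear axis from 0, its own scale in each panel) of Cd55, Daf2, Cr1l and Cd59a in 3 Ly5.1 (black) and 3 Ltbr-/- (red) samples, 1 point per sample, with the mean and SD beside each group. The Cd55 points of Ltbr-/- samples (1115 to 1261) all lie above those of Ly5.1 samples (679 to 700), whereas the groups of the other genes overlap; with samples centred on ribosomal protein genes the Cd55 difference turned to -0.085.

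Levels of different genes were set side by side only per kb of the longest coding transcript. On that scale the mean signal of Cd55 was 469 ± 28.8 per kb in Ltbr-/- and 273 ± 4.25 per kb in Ly5.1 cells (SD, n = 3 each). Cr1l had 317 ± 31.0 and 314.5 ± 19.4 signal per kb, Daf2 60.9 ± 1.98 and 63.7 ± 3.58, and Cd59a 18.2 ± 0.934 and 18.3 ± 0.327. In Ly5.1 cells the order was thus Cr1l, Cd55, Daf2 and Cd59a, the samples of Cr1l (292 to 327 per kb) lying above those of Cd55 (268 to 276). In Ltbr-/- cells Cd55 (440 to 498 per kb) lay above Cr1l (281 to 337), with Daf2 and Cd59a below both as before. No 2 neighbours in either order overlapped between samples. The order rests on 1 transcript length per gene.

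The rest of the complement system was then examined to see whether it moved with Cd55. Of 54 further complement genes 51 had a value, 24 were tested, and 15 were listed at 1 in every sample. By adjusted p and fold 1 of the 24 was called higher, beside 2.72% of all genes tested, and 0 were called lower, beside 0.061% (limma; 5 were lower at an unadjusted p under 0.05). By adjusted p alone 3 were higher and 4 lower, while 10.6% and 4.18% of all genes tested were. The median log2 difference of the 24 genes was -0.012, and that of all genes tested was -0.011.

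Among the other regulators, Clu was the gene called higher, apart from centring on ribosomal protein genes, where its log2 difference was 0.00064, or 0.88 above the shifted median. Clu encodes clusterin, a secreted chaperone that also hinders the membrane attack complex. Its signals were 1311, 1502 and 1531 in Ltbr-/- and 793, 773 and 813 in Ly5.1 samples, with no overlap (log2 difference 0.87, SE 0.088, limma adjusted p = 7.53e-10). Cd46, a cofactor protein that mice express mainly in testis, was low, with 24.8, 24.6 and 25.7 in Ltbr-/- and 26.7, 25.5 and 34.3 in Ly5.1 samples. Its difference (log2 -0.19, SE 0.062, limma adjusted p = 0.0317) rested on Ly5.1 replicate 3, without which it was -0.061 (adjusted p = 0.441), and it missed the threshold without each of the Ltbr-/- samples (0.0618 to 0.0813), with no filter on low values (0.118) and without the trend (0.251). Cfi, C4bp, Vtn, Csmd1 and Cpn2 were listed at 1 throughout.

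Of the complement receptors 7 were tested, and by limma's adjusted p alone C1qbp and C3ar1 were higher and Itgam and Cd93 lower in Ltbr-/- cells, apart from centring on ribosomal protein genes, where C1qbp and C3ar1 stood at -0.41 and -0.49, which was 0.46 and 0.39 above the shifted median of all genes. C1qbp, a mitochondrial protein that can bind the globular heads of C1q, had signals of 3723, 4091 and 3805 against 2529, 2959 and 3018 (log2 difference 0.45, SE 0.080, adjusted p = 4.98e-05). C3ar1, the C3a receptor, had 247, 278 and 260 against 177, 210 and 220 (0.38, SE 0.097, adjusted p = 0.00554; 0.0723 without Ly5.1 replicate 1). In neither gene did the groups overlap. Itgam, the α chain of complement receptor 3, had 848, 659 and 767 in Ltbr-/- against 937, 940 and 907 in Ly5.1 samples (log2 difference -0.30, SE 0.094, adjusted p = 0.0259). Cd93, a lectin-like surface protein first described as a C1q receptor, had 713, 606 and 709 against 800, 805 and 829 (-0.27, SE 0.092, adjusted p = 0.0436). Both were lower in 3 of 3 samples. Itgam missed the threshold without Ltbr-/- replicate 2 or 3 or Ly5.1 replicate 1 or 2 (adjusted p 0.0636 to 0.224), and Cd93 without any sample but Ltbr-/- replicate 1 (0.0602 to 0.258) or with no filter on low values (0.0656). Itgb2, the partner chain of Itgam, had a log2 difference of 0.13 (adjusted p = 0.299), and 71.7% of the 76-base windows of Itgam were shared with the gene model Gm49368.

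The initiating and effector components were mostly below the level filter or did not pass the adjusted p threshold. In the classical and lectin pathways 9 genes were tested and 1 passed limma's adjusted p, Fcnb, a ficolin of myeloid cells, with 957, 920 and 959 in Ltbr-/- and 1072, 1188 and 1362 in Ly5.1 samples (log2 difference -0.35, SE 0.091, adjusted p = 0.00713). The groups did not overlap, but without Ly5.1 replicate 3 the difference was -0.26 (adjusted p = 0.0648). C1ra, a protease of the C1 complex, had a log2 difference of -0.18 (adjusted p = 0.222). None of the 5 tested genes of C3, the alternative and the terminal pathway passed (1 at an unadjusted p under 0.05). C3, the component on which all routes converge, had signals of 3317, 3021 and 3375 in Ltbr-/- and 3608, 3397 and 3684 in Ly5.1 samples (-0.14, limma adjusted p = 0.240), and Cfp, properdin, a log2 difference of -0.23 (adjusted p = 0.0999). The groups of C1ra, C3 and Cfp did not overlap either, as was the case for 30.4% of all genes tested.

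**Figure D2:**
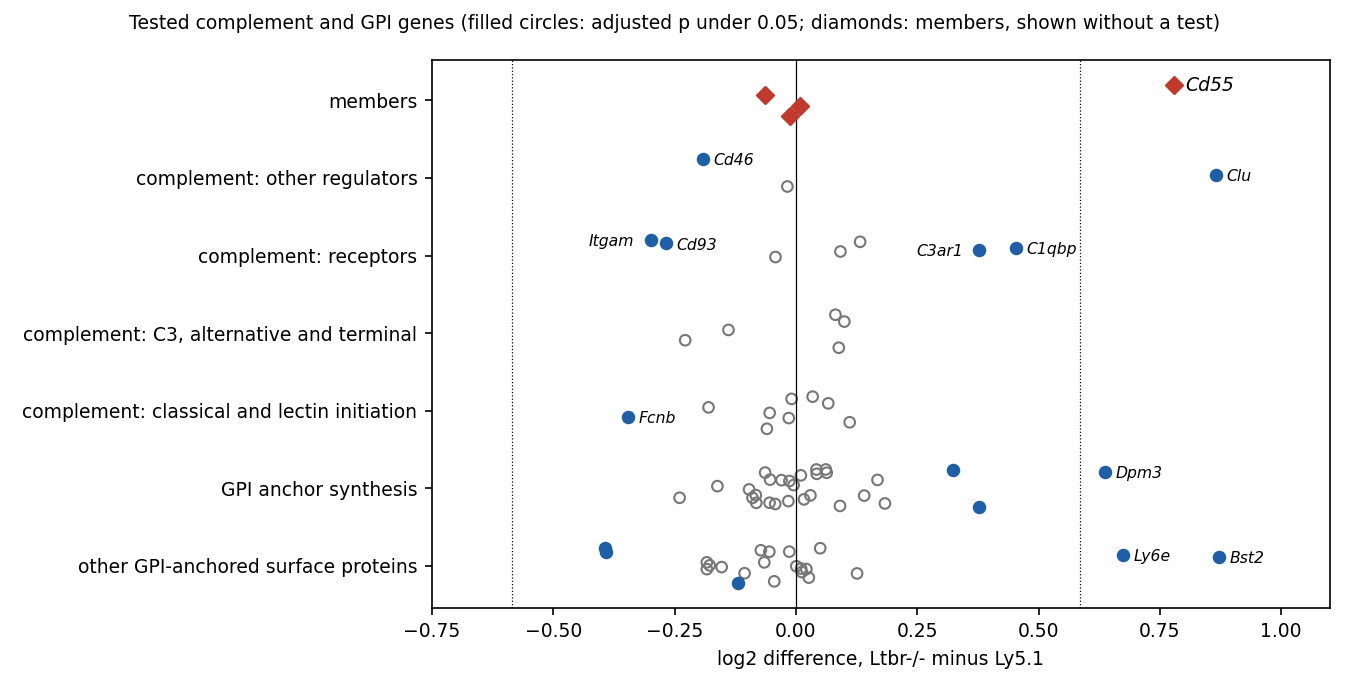
Log2 difference (Ltbr-/- minus Ly5.1) of each tested gene, 1 point per gene in 1 row per list; filled circles had an adjusted p under 0.05, dotted lines mark 1.5-fold, and diamonds are the 4 members, shown without a test. Cd55 (0.78) and Clu (0.87) lie to the right of the 1.5-fold line, and the median of the 24 other complement genes is -0.012; centred on ribosomal protein genes both were near 0 (-0.085 and 0.00064).

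Markers of other blood cell types also differed between the same samples, and their counts by adjusted p are to be read beside the 10.6% higher and 4.18% lower of all genes tested. All 10 granulocyte markers had log2 differences below 0 (median -0.40) and 9 were lower by limma's adjusted p, beside the lower Itgam and Fcnb values. Summed mast cell and basophil markers were 7797 to 8356 in Ltbr-/- and 4330 to 4961 in Ly5.1 samples, with 2 higher, 1 lower and Tpsb2 listed at 1 throughout. Those of monocytes and macrophages summed to 2656 to 2970 and 2150 to 2352, with 2 of 6 higher and Marco listed at 1. Erythroid markers summed to 5952 to 6305 and 4362 to 4695 (2 of 8 higher, the near-identical globin copies Hba-a1 and Hba-a2, by 0.99 and 0.86 on the log2 scale), and megakaryocyte markers to 14315 to 15060 and 12180 to 13534 (1 of 7 higher, 1 lower). B and plasma cell markers summed to 1457 to 1586 and 2316 to 2478, with Cd79a called higher (0.62) and Ighm and Igkc called lower (-1.04 and -1.21). Of the mast cell and the macrophage markers, Cma1 (1.32) and Emr1 (0.83) were called higher. A sum follows its highest genes, which were Cma1, Emr1 and, of the megakaryocyte markers, Itga2b (0.31). The medians of tested mast cell and basophil, monocyte and macrophage, and megakaryocyte markers were -0.037, -0.078 and -0.059, below 0 where the sums were higher. The erythroid median was 0.12. The 12 HSC and sort markers summed to 18490 to 19197 and 19651 to 20252 (1 higher, 2 lower), and T cell markers to 285 to 296 and 282 to 316 (0 of 3 at an unadjusted p under 0.05). The part of these cells in the values of Cd55, Clu or the receptors was not tested.

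Cd55 and Cd59a need a GPI anchor to stay on the surface, so the anchor pathway and other anchored proteins were examined next. Of 28 tested genes of anchor synthesis 1 was called higher, Dpm3, and 0 lower (limma; 2 at an unadjusted p under 0.05), and by adjusted p alone 3 were higher (Dpm3, Dpm1 by 0.32 and Pigf by 0.38) and 25 passed in neither direction. Of all genes tested 2.72% were called higher and 0.061% lower, and by adjusted p alone 10.6% were higher and 4.18% lower, so the 28 genes were close to the background. Dpm3, a subunit that tethers the mannose donor enzyme in the endoplasmic reticulum, had signals of 1124, 1142 and 1308 in Ltbr-/- and 736, 736 and 825 in Ly5.1 samples (log2 difference 0.64, SE 0.091, limma adjusted p = 1.11e-06; -0.23 centred on ribosomal protein genes, 0.65 above the shifted median). The groups did not overlap. Pigt and Gpaa1, subunits of the transamidase that attaches the anchor, had log2 differences of -0.054 (adjusted p = 0.746) and 0.18 (adjusted p = 0.177), and the median of the 28 genes was 0.0026.

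Of 22 tested genes for other GPI-anchored proteins 2 were called higher, Ly6e and Bst2, and by limma's adjusted p alone 2 were higher and 3 lower (Ly6a, Sema7a and Ly6g), with a median of -0.050, beside the same 2.72%, 10.6% and 4.18% of all genes tested. Ly6e, a member of the Ly6 family, had 10429, 10338 and 10604 in Ltbr-/- and 6671, 6097 and 6928 in Ly5.1 samples (log2 difference 0.67, SE 0.067, adjusted p = 3.98e-10), which fell to 0.37 after quantile normalization and was -0.19 when centred on ribosomal protein genes, 0.68 above the shifted median. Bst2, tetherin, an interferon-inducible protein that holds budding virus at the membrane, had 3401, 3846 and 3584 against 2064, 1660 and 2232 (0.87, SE 0.089, adjusted p = 7.53e-10; 0.0072 centred on ribosomal protein genes, 0.88 above the shifted median). Neither gene's groups overlapped. Ly6a, which encodes the sort antigen Sca1, had 578, 541 and 582 in Ltbr-/- and 726, 767 and 740 in Ly5.1 samples (-0.39, SE 0.090, limma adjusted p = 0.0016). Beside them Cd55 stood at 0.78 and Cd59a at -0.012.

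The position of Cd55 bears on how its value can be read. The donors differ at Ptprc, which encodes CD45, by design, and the allele that marks one of them brings linked chromosome with it. Cd55 lies 7.60 Mb and Daf2 7.64 Mb from Ptprc (chr1:138062859-138175756), while Cr1l lies 56.92 Mb away and Cd59a on another chromosome. Within 10 Mb on each side of Ptprc 86 genes were tested, and 3 were called in either direction (3.49%), beside 2.78% of all genes tested. By direction 1 was called higher, beside 2.72% of all genes tested. The other 2 were called lower, beside 8 of all 13108 genes tested (0.061%). By adjusted p alone they were 11 (12.8%), beside 14.8%, and the median log2 difference of the 86 was -0.065. Of these 11 genes 4 were higher and 7 lower, beside 10.6% and 4.18% of all genes tested. The counts in either direction and the counts of higher genes include Cd55, which was chosen with its difference known. They rest in part on that choice.

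The 3 called genes were Ctse, Ptprv and Cd55, the last being a member chosen with its difference known. Ctse, which encodes the aspartic protease cathepsin E, had signals of 460, 296 and 446 in Ltbr-/- and 2207, 2346 and 2438 in Ly5.1 samples (log2 difference -2.57, SE 0.11, limma adjusted p = 1.15e-19). Ptprv, a receptor-type phosphatase gene, had 733, 689 and 781 against 1239, 1117 and 1031 (-0.62, SE 0.092, adjusted p = 2.33e-06), and was under 1.5-fold without Ltbr-/- replicate 2 (-0.57) or Ly5.1 replicate 1 (-0.55). The groups did not overlap in either. None of the tested genes nearest to the pair on either side passed limma's adjusted p. On the left these were Cxcr4, the receptor that holds HSCs in the marrow (log2 difference -0.19, adjusted p = 0.140), Dars (0.092, 0.523) and Mcm6 (-0.16, 0.103). On the right Pfkfb2, a regulator of glycolysis 224 kb away, had 362, 360 and 387 in Ltbr-/- and 478, 410 and 443 in Ly5.1 samples (-0.26, adjusted p = 0.0552), and was followed by Yod1 (-0.091, 0.328) and AA986860 (0.020, 0.783). Daf2, the nearest gene of all, lay at -0.064. An effect of LTβR loss on Cd55 and a difference between the donors' chromosomes at this locus cannot be told apart in this design.

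**Figure D3:**
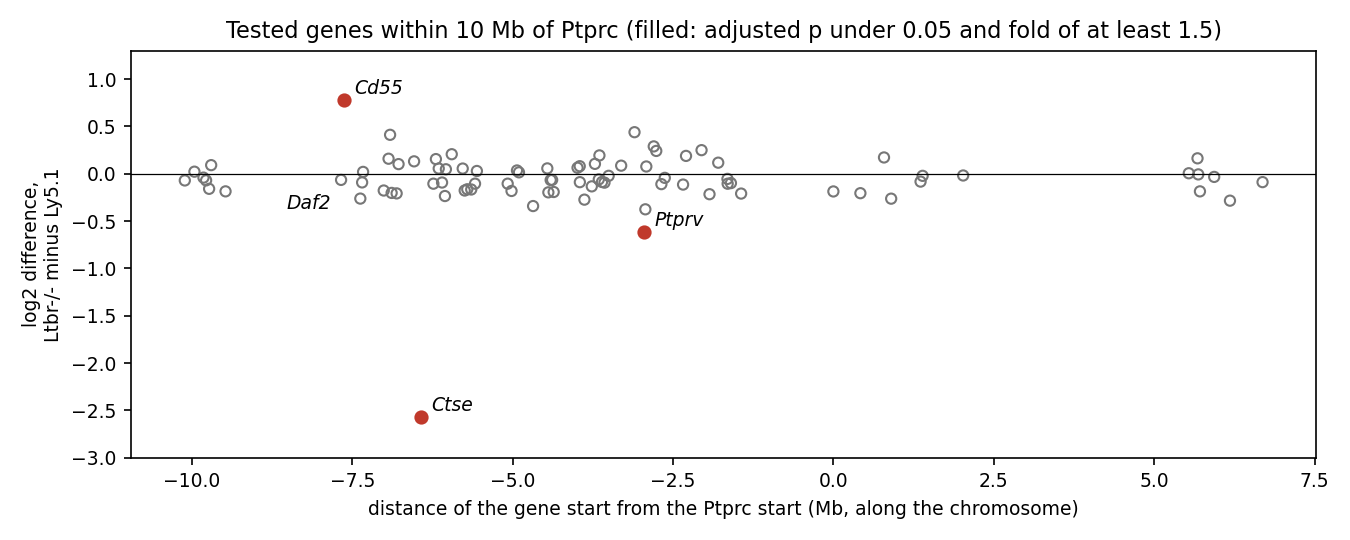
Log2 difference (Ltbr-/- minus Ly5.1) of the 86 tested genes within 10 Mb of Ptprc against the distance of each gene's start from that of Ptprc in Mb, 1 point per gene; filled points were called by adjusted p and fold. Cd55 (0.78) is the 1 called gene above 0 and Ctse (-2.57) and Ptprv (-0.62) are the 2 below it, and Daf2 beside Cd55 lies at -0.064. Centred on ribosomal protein genes Cd55 was at -0.085. Cd55 was chosen with its difference known.

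The genes whose values ran closest to those of Cd55 across the 6 samples were found by the root mean square difference of log2 signals, each centred on its own mean. The nearest were Gm14279 (0.022), Ankrd37 (0.026), LOC100042025 (0.028), Rpl7 (0.029) and Gm8841 (0.031, on the log2 scale). Their log2 differences between genotypes ran from 0.75 (Rpl7) to 0.78 (LOC100042025). These genes were picked by likeness to Cd55, so similar differences and separate groups follow from the choice. Rpl7, a protein of the large ribosomal subunit, had signals of 25948, 26784 and 28132 in Ltbr-/- and 15531, 15981 and 16611 in Ly5.1 samples, which like those of Cd55 were lowest in Ltbr-/- replicate 1 and in Ly5.1 replicate 1. The nearest to Daf2 were Usp19 (0.011) and LOC101056043 (0.013), to Cr1l Cables1 (0.018) and Trim45 (0.021), and to Cd59a Fam120b (0.0053) and Ndn (0.0079).

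**Figure D4:**
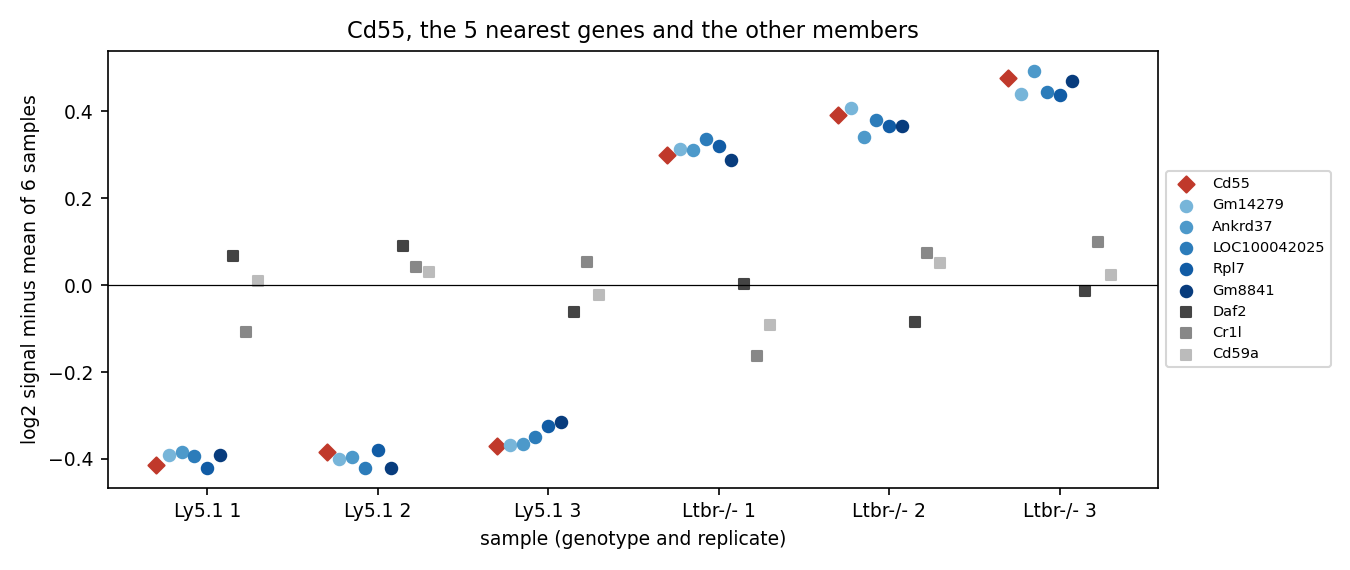
Log2 signal minus its mean over the 6 samples, by sample, for Cd55 (red diamonds), the 5 tested genes nearest to it by root mean square difference (blue circles) and Daf2, Cr1l and Cd59a (grey squares). Cd55 and its 5 nearest genes are higher in all 3 Ltbr-/- than in all 3 Ly5.1 samples, with differences of 0.75 to 0.78 (Cd55 -0.085 when centred on ribosomal protein genes), and the grey squares of the genotypes overlap. The 5 genes were chosen by likeness to Cd55, so their separation follows from the choice.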

How the data were processed

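RNA of LT/ST-HSCs was sequenced as single 76-base reads from stranded mRNA libraries and aligned and counted by the authors; DESeq2, GRCm38 and mm10 are named in the submitters' processing notes. The deposited signal, per the labels and the values, is the antilog of regularized log2 values, so no depth, interval or detection limit could be computed. Of 26595 rows per file, 75 names were repeated, of which the highest row was kept (no member), and 9034 names had 1 value in all samples. From log2 of this signal, 3 Ltbr-/- samples were compared with 3 Ly5.1 samples by limma 3.58.1 (R 4.3.3; eBayes with trend) over 13108 names, with Benjamini-Hochberg adjustment, and calls needed an adjusted p under 0.05 and 1.5-fold. The scripts were tested on simulated data. RefSeq GRCm38.p6 placed 12745 tested names, and 4 of 4 members matched its promoters. Genes named were the members, complement genes passing adjusted p, the 2 highest of each complement and GPI list, called GPI and marker genes, 3 neighbours per side, called genes near Ptprc and the nearest by likeness. Some genes that this rule or the lists include are not reported here. Dpm1, Pigf, Ly6a, Sema7a and Ly6g were named after their values were seen. The members and lists were chosen with earlier results of these data known. Replicates are pools of chimeras, so p-values measure the spread between pools. Alternatives were the scaling, filter, fold, window, trend, replicate block and leaving out each sample.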

Additional observations from a re-analysis of the deposited data

How the results depend on the processing

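Most results kept their direction and side of the threshold, though some could not have moved. In this balanced design the replicate block leaves each log2 difference as it was, and the counts that follow include it. Of the values for the main counts, Ltbr and the members under all alternatives, 129 stayed within the spread or within 1.5 times, 24 moved and 1 reversed; of those for the named complement, GPI and Ptprc-linked genes that passed adjusted p, 130 stayed, 20 lost significance and 4 reversed. Centring on ribosomal protein genes, which were themselves higher by a median of 0.79, gave 0 genes called higher and 11955 lower, 30 and 12833 by adjusted p alone, 0 complement genes higher and 21 lower, and 82 called near Ptprc. The log2 differences there were -0.085 for Cd55 (reversed), -0.93 for Daf2, -0.86 for Cr1l, -0.88 for Cd59a, and, also reversed, -0.41 for C1qbp, -0.49 for C3ar1, -0.23 for Dpm3 and -0.19 for Ly6e, while the median of all genes was -0.88. Relative to that median Cd55 was 0.79, C1qbp 0.46, C3ar1 0.39, Dpm3 0.65 and Ly6e 0.68 higher. Such distances are left as they were by this scaling, so they are no check of the differences. Quantile normalization gave 28 genes called lower and 914 lower by adjusted p alone, and no filter on low values gave 355 of the latter. The upper 25% by mean gave 4 genes called lower. At 2-fold 37 genes were called higher and 5 lower, 0 complement genes higher and 1 gene near Ptprc, and within 5 Mb of Ptprc 1 gene was called. Summing Cd55 and Daf2, chosen after seeing the data as were the alternatives for named genes that are no members, gave 0.71. The causes were not tested.

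Leaving out each sample gave 334 to 398 genes called higher and 8 to 12 lower, and by adjusted p alone 1004 to 1400 higher and 249 to 599 lower; the last count, 548 with all samples, was 302 and 249 without Ltbr-/- replicates 2 and 3, and 343 and 365 without Ly5.1 replicates 1 and 2. It gave 1 complement gene called higher and 0 lower each time, 2 to 3 genes near Ptprc, and log2 differences of -4.53 to -4.43 for Ltbr, 0.74 to 0.82 for Cd55, -0.11 to -0.035 for Daf2, -0.045 to 0.091 for Cr1l and -0.040 to 0.031 for Cd59a. With the replicate number as a block 356 genes were called higher and 8 lower, and 1372 and 564 by adjusted p alone, and no call changed among Ltbr and the complement, GPI and Ptprc-linked genes recomputed with it. Deviations of same-numbered samples from their group means correlated at 0.031, -0.0052 and 0.090, so the numbers were not taken as pairs. No member had repeated rows, so averaging them gave no value. With no counts in the files, precision at low level (Cd59a, Cd46) cannot be judged beyond the spread of 3 pools.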
